A study of Mus musculus with 18 samples.

Results

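The matrix metalloproteinases (Mmp), the ADAM and ADAMTS proteases and the tissue inhibitors of metalloproteinases (Timp) were measured in sorted cells of mouse skin. Members were chosen by name alone: every probe set whose single platform symbol is a numbered Mmp, Adam, Adamts or Timp gene was taken. This gave 109 of 45101 probe sets and 60 of 18193 genes, namely 18 Mmp, 23 Adam, 15 Adamts and 4 Timp genes. The 18 arrays came from double transgenic K5tTA (FvB) x pTREH2B-GFP (CD1) mice, in which the Keratin 5 promoter drives a GFP-tagged histone in basal epithelial cells and doxycycline switches it off, so that GFP is diluted at each division. All groups carried both transgenes and all received doxycycline at 1 g per kg of food, from PD22 to PD25 or from PD18 to PD21 (PD, postnatal day). At each age 3 mice gave 3 fractions sorted on CD34, α6-integrin and GFP: divided bulge cells (1 to 2 divisions in the chase), undivided bulge cells (0 divisions) and non-bulge cells, with no division class given for the last. The 6 groups, each of 3 arrays, were therefore PD25 divided bulge, PD25 undivided bulge, PD25 non-bulge, PD21 divided bulge, PD21 undivided bulge and PD21 non-bulge. The bulge is the part of the hair follicle that houses its stem cells.

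Matrix metalloproteinases and ADAMTS enzymes are zinc proteases that cut collagens, proteoglycans and other matrix proteins, while membrane-anchored ADAMs release the outer parts of growth factors, receptors and adhesion molecules from the cell surface. TIMPs bind the active site of these enzymes and block it, and TIMP2 also takes part in the activation of pro-MMP2 by the membrane-type protease MMP14. In skin these enzymes are known for their part in wound closure, basement membrane turnover and hair follicle remodelling.

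Promoters of 3 members the results turn on are shown, from the RefSeq promoter table (GRCm38.p6, 250 bases before to 50 after the annotated start, minus strand for all 3). They set the inhibitor Timp2 beside Mmp11, a protease that was also higher in PD25 bulge cells, and Adamts1, a protease that was lower in undivided bulge cells. Capitals mark matches on either strand to GGGCGG, the GC box bound by Sp1-type factors, and to TATAAA, the TATA box. The windows are chr11:118355362-118355661 for Timp2, chr10:75932453-75932752 for Mmp11 and chr16:85803064-85803363 for Adamts1.
Timp2: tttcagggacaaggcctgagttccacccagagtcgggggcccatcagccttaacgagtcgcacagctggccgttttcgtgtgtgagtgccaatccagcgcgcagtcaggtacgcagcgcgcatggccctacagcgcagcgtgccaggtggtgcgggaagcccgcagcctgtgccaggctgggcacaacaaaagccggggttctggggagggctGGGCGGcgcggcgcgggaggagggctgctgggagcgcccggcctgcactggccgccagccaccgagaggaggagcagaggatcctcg
Mmp11: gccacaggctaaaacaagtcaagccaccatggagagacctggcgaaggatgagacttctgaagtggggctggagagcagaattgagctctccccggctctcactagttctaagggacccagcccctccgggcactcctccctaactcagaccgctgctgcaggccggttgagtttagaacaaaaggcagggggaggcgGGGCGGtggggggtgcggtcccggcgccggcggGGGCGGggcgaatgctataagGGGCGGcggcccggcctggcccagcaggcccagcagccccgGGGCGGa
Adamts1: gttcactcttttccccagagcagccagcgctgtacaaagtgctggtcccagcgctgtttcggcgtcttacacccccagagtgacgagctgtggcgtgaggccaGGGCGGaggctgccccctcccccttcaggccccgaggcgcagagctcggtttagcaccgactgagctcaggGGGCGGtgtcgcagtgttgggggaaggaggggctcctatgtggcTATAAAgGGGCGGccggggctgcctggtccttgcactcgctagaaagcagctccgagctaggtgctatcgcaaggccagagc
The Timp2 window held 1 GC box, the Mmp11 window 4 and the Adamts1 window 3, and the Adamts1 window alone of these held a TATA box. Over all 32817 promoters of the table, 35.631% held a GC box and 13.621% a TATA box. Of the 20 members that could be tested, 11 had a promoter in the table, and of these 10 held a GC box and 2, Adamts1 and Mmp3, a TATA box. TGANTCA, the AP-1 site long described in protease promoters, was in 1 of the 11 (Mmp3) and in 7.813% of all promoters, and TGTGGT, the core bound by Runx factors, in 2 of the 11 (Adam15 and Mmp14) and in 16.76% of all. Neither stretch of letters was in the 3 windows shown. These matches are descriptions of the letters in a 300-base window.

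Values are GCOS signals, which the authors scaled so that the trimmed mean is alike on every array, taken here as log2(signal + 16). The sort left its mark on the arrays in one unequal way. Cd34, the surface marker of the gate, had signals of 3411.4, 3007.3 and 7445.1 in PD25 divided bulge cells of mice 1, 2 and 3, 5788.8, 4837.9 and 5469.3 in PD25 undivided bulge cells, and at most 30.9 in PD25 non-bulge cells. In PD21 divided bulge cells it had 568.5, 224.7 and 806.8, against 8912.8, 5402.8 and 6491.3 in PD21 undivided bulge cells and at most 25.1 in PD21 non-bulge cells. The summed signal of 6 bulge markers (Cd34, Lhx2, Sox9, Lgr5, Nfatc1, Tcf7l1) was 3576.1 to 5225.7 in PD21 divided bulge cells, against 19332.5 to 25240.5 in PD21 undivided bulge cells and 1694.2 to 2507 in PD21 non-bulge cells. The 3 arrays labelled PD21 divided bulge thus stood far below the other bulge arrays in the markers of their label, and every result that uses them is read beside that. All 5 keratinocyte markers (Krt5, Krt14, Krt15, Itga6, Trp63) were above the array median in all 18 arrays, and none of 4 endothelial markers could be tested. Of 6 immune markers 3 were tested, Cd3e, Cd68 and Cd207, which were above the median in 6, 6 and 3 arrays with highest signals of 307.2, 142 and 91.6, and 0 of the 3 passed in any comparison. Ptprc, the pan-leukocyte marker, was above the median in 1 array.

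Whether a member could be tested at all depended on its brightness. Only probe sets brighter than the median of their array in 3 or more of the 18 arrays were kept, and a gene was read from the kept probe set of highest mean. That left 38 member probe sets and 20 genes, of which 10 were above the median in all 18 arrays. The other 40 members were not tested: at their best probe set 27 were above the median in 0 arrays, 7 in 1 and 6 in 2, and the highest signal among them was 347.9, for Adamts3 on 1 array. Untested members included Timp1 (highest signal 51.6) and Timp4 (42.6), the gelatinase Mmp9 (141.6) and all 4 collagenases (Mmp1a, Mmp1b, Mmp8, Mmp13). Also untested were Mmp7, which codes for matrilysin, and 10 of 11 ADAMs whose expression is known mainly from testis. With no filter, 4 of these dim members passed: Adamts20 (2.20, adjusted p = 0.00309) and Adamts3 (2.00, adjusted p = 0.0417) for PD25 divided bulge against PD25 non-bulge cells, both of these and Timp1 (1.80, 2.14 and 1.43) for PD25 against PD21 divided cells, and Mmp8 (1.09) for PD21 undivided bulge against PD21 non-bulge cells. The share of all genes that passed with no filter is not given here, so this count is not read as a result about the members. A dim signal on these arrays does not show that a gene was silent.

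Timp2, the secreted inhibitor, was the one member that passed the test in every comparison of bulge with non-bulge cells, and it was higher in bulge each time. The proteases that passed moved in both directions. Calls are limma tests with Benjamini-Hochberg adjustment over 11569 genes at 0.05, with 3 mice a group. In undivided bulge against non-bulge cells, 5 of 20 tested members passed at PD25, 2 higher (Timp2, Mmp11) and 3 lower (Adam8, Adamts1, Mmp2), where 10.5% of all tested genes passed, 5.71% higher and 4.83% lower. At PD21 3 of 20 passed, Timp2 higher and Adam10 and Adamts1 lower, where 11% of all genes passed, 6.12% higher and 4.93% lower. In divided bulge against non-bulge cells, 3 of 20 passed at PD25, Timp2 and Mmp11 higher and Adam8 lower, against 8.87% of all genes, 5.62% higher and 3.25% lower. At PD21 only Timp2 passed, 1 of 20, against 0.182% of all genes, all of them higher (0% lower).

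Between the bulge fractions themselves, 2 of 20 members passed at PD21, Adamts1 higher and Timp2 lower in divided cells, where 8.28% of all genes passed, 3.91% higher and 4.37% lower. With the mouse as a block 4 passed, Adam8 (1.98 ± 0.62 on the log2 scale, adjusted p = 0.0378) and Adam10 (0.74 ± 0.17, adjusted p = 0.00488) being added as higher in divided cells. The share of all genes that passed in that fit is not given here. The PD21 divided arrays are those in which bulge markers were low. At PD25 limma called 0 of 20 members and 0% of all genes, with 2 members (Adamts1 and Mmp14) and 635 genes at an unadjusted p under 0.05. In PD25 against PD21 divided bulge cells 3 of 20 passed, Timp2 and Mmp11 higher and Mmp2 lower, against 7.84% of all genes, 4.37% higher and 3.47% lower. PD25 against PD21 gave 0 called members in undivided bulge cells (1 at an unadjusted p under 0.05, with 0.0951% of all genes called) and 0 in non-bulge cells (2 unadjusted, 0.0432%). The members as a family did not shift one way: their median log2 fold change for undivided bulge against non-bulge cells was -0.40 at PD25 and 0.24 at PD21, beside -0.02 and -0.05 for all tested genes.

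**Figure D1:**
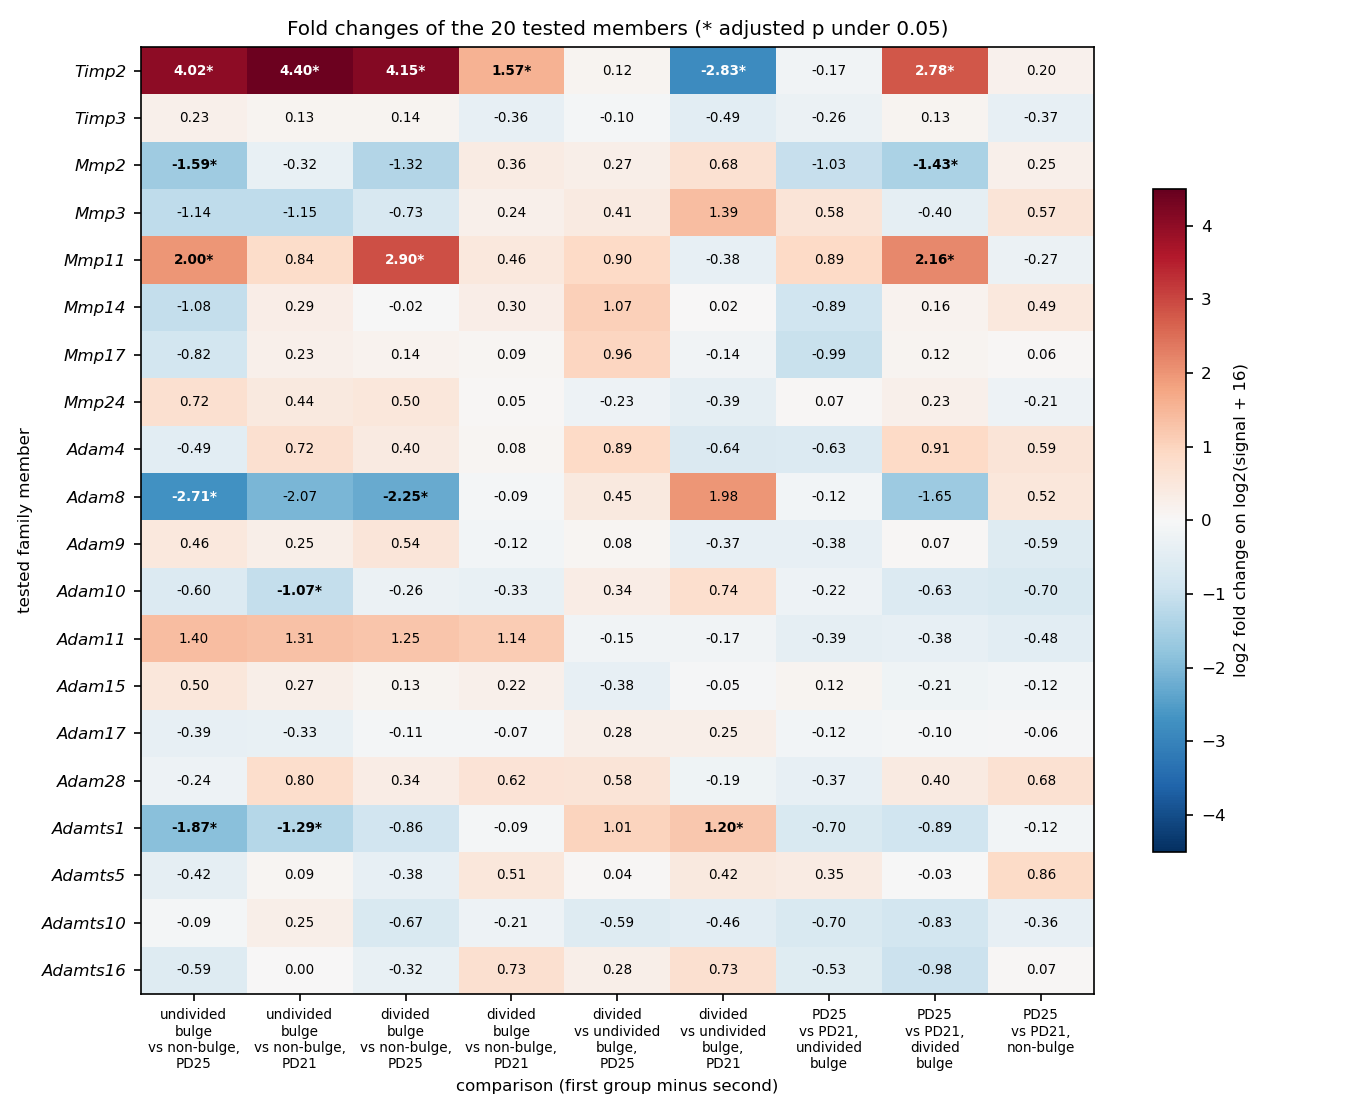
Log2 fold change, on the log2(signal + 16) scale, of the 20 tested members (rows, inhibitors first) in the 9 comparisons (columns, the first group minus the second); colour and number give the value, and an asterisk marks an adjusted p under 0.05. Timp2 holds the 3 largest values, 4.15 for divided and 4.02 for undivided bulge against non-bulge cells at PD25 and 4.40 for undivided bulge against non-bulge cells at PD21, while most protease cells are pale and unmarked.

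Of the inhibitors, Timp2 had the largest differences (probe set 1454677_at). Its log2 levels were 12.92, 11.67 and 12.24 in PD25 divided bulge cells of mice 1 to 3, 12.36, 12.05 and 12.06 in PD25 undivided bulge cells, and 8.45, 7.95 and 8.0 in PD25 non-bulge cells. At PD21 they were 9.24, 8.94 and 10.30 in divided bulge cells, 12.51, 12.15 and 12.32 in undivided bulge cells, and 7.75, 7.59 and 8.44 in non-bulge cells. Both PD25 bulge fractions and the PD21 undivided fraction thus lay at 11.67 or above, both non-bulge groups lay at 8.45 or below, and on this probe set the PD21 divided fraction lay between, overlapping neither of its neighbours.

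Undivided over non-bulge cells, Timp2 differed by 4.02 ± 0.33 (SE) on the log2 scale at PD25, a 16.3-fold difference (limma adjusted p = 1.24e-08), and by 4.40 ± 0.33 at PD21, 21.1-fold (adjusted p = 3.62e-09). By p-value these differences ranked 12 and 6 among 11569 genes, and by size 80 and 56. The 2 undivided effects did not pass a test for a difference between the ages (PD25 minus PD21 -0.38 ± 0.46, adjusted p = 1.00), a test in which limma called 0% of all genes and had 446 genes and 0 members at an unadjusted p under 0.05. Divided over non-bulge cells differed by 4.15 ± 0.33 at PD25, 17.7-fold (adjusted p = 1.39e-08).

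At PD21 the divided bulge fraction exceeded non-bulge cells by 1.57 ± 0.33, 2.96-fold, with an adjusted p of 0.0441. This call was lost when PD21 non-bulge mouse 1 or 2 or PD21 divided mouse 1 or 3 was left out (adjusted p = 0.0898 to 0.403), while the difference stayed between 1.16 and 1.85. The mouse as a block gave an adjusted p of 0.00305. On the same arrays the bulge marker sum was 3576.1 to 5225.7 in divided and 1694.2 to 2507 in non-bulge cells.

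The PD21 divided fraction had less Timp2 than the undivided fraction of the same mice, by -2.83 ± 0.33 on the log2 scale or 7.12-fold (adjusted p = 8.67e-06). In signal it had 589.4, 475.3 and 1248.3, against 5814.6, 4528.4 and 5105.1 in undivided and 199.9, 177.1 and 330.4 in non-bulge cells. Placed between non-bulge (0%) and undivided bulge (100%) of the same mouse, the PD21 divided signal stood at 6.9%, 6.9% and 19.2%. On that measure Cd34 stood at 6.4%, 4.1% and 12.1%, Sox9 at 9.9%, 11.7% and 13.4%, and Lhx2 at 19.7%, 12.2% and 23.0%. Lgr5 stood at 23.2%, 2.3% and 18.7%, Nfatc1 at 60.1%, 8.8% and 30.3%, and Tcf7l1 at -39.7%, 35.3% and 3.4%. Timp2 and 4 of the 6 bulge markers thus stood at 23.2% or below in each mouse, while Nfatc1 and Tcf7l1 varied widely between mice. In bulk RNA, fewer cells of a type and less RNA of a gene per cell cannot be told apart.

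At PD25 divided and undivided bulge cells overlapped in Timp2, and the difference was 0.12 on the log2 scale (95% interval -0.56 to 0.80). The divided minus undivided difference in Timp2 (the division effect) therefore changed between the ages by 2.95 ± 0.46, PD25 minus PD21 (adjusted p = 0.00419). In this test 1 of 20 members and 1.18% of all genes passed, 0.813% with a positive and 0.372% with a negative value. Of the 6 bulge markers 4 passed it too, with positive values, and the median of the 6 was 2.33. Between the ages, the PD25 divided fraction exceeded the PD21 divided fraction by 2.78 ± 0.33, 6.88-fold (adjusted p = 1.07e-05), with the bulge marker sum at 15964.3 to 25206.2 in PD25 and 3576.1 to 5225.7 in PD21 divided cells. PD25 minus PD21 was -0.17 in undivided bulge cells (95% interval -0.85 to 0.51) and 0.20 in non-bulge cells (-0.48 to 0.88). The comparisons of 1 age share their arrays, so the Timp2 values above are not separate lines of evidence.

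The arrays fall into 2 sets of 9 by their mean signal, 810.8 to 868.9 (all fractions of PD25 mouse 1 and PD21 mice 1 and 2) and 666.7 to 730.6 (all fractions of PD25 mice 2 and 3 and PD21 mouse 3), a split no label records. Each PD25 fraction is thus 1 array in the first set, and each PD21 fraction 1 array in the second, and a fit within a set takes such a lone array to vary like the rest. Where a fraction had 2 arrays, Timp2 differed between undivided bulge and non-bulge cells by 4.08 at PD25 (second set, adjusted p = 1.11e-06) and by 4.66 at PD21 (first set, adjusted p = 3.13e-07). The pairs of lone arrays gave 3.91 at PD25 and 3.89 at PD21. Divided minus undivided at PD21 was -3.24 in the first set (adjusted p = 3.74e-05) and -2.02 between the lone arrays of the second. PD25 minus PD21 in divided cells was 3.83 in the first set and 1.65 in the second (adjusted p = 0.000103 and 0.0717), and the change of the division effect was 3.80 and 1.92 (adjusted p = 0.00893 and 0.339), each of these resting on 1 mouse at one of the ages.

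The 6 Timp2 probe sets, read on the same RNA, agreed on the undivided fraction and less so on PD21 divided cells. Tested each on its own, 6 of 6 passed for undivided bulge against non-bulge cells at PD25 (log2 3.67 to 4.78) and at PD21 (3.54 to 4.80). For PD21 divided against undivided cells 6 of 6 were lower (-3.27 to -2.83). For PD21 divided bulge against non-bulge cells they ranged from 0.31 to 1.95 and 1 of 6 passed, 1460287_at (1.95 ± 0.36, adjusted p = 0.0128), while the one that stands for the gene, 1454677_at, missed the threshold in that fit (adjusted p = 0.0517). The PD21 divided arrays lay above all PD21 non-bulge arrays on these 2 probe sets and overlapped them on the other 4. On 1450040_at, for example, they had 6.05 to 9.53 against 7.15 to 7.61 in PD21 non-bulge cells. On all 6 they lay below every PD21 undivided array.

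**Figure D2:**
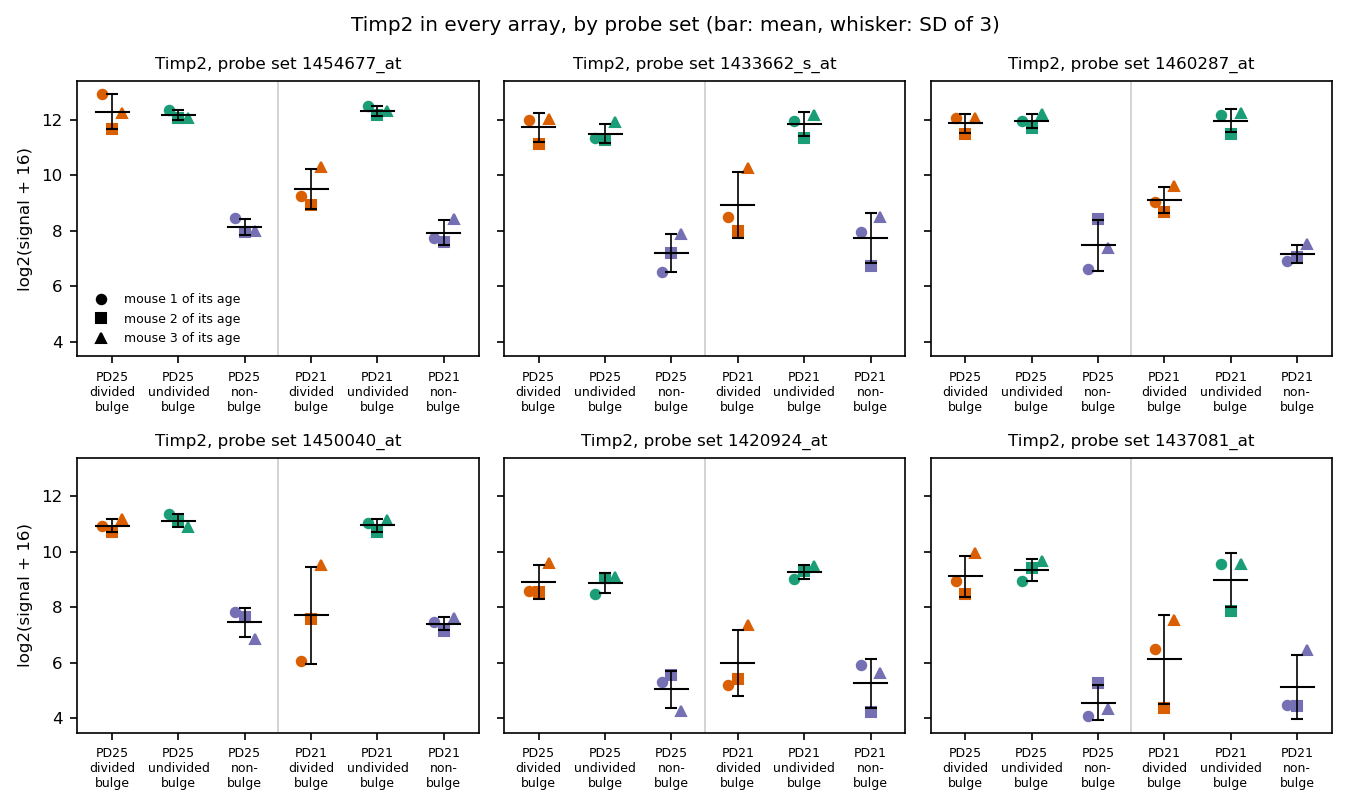
Each panel shows 1 of the 6 Timp2 probe sets, with log2(signal + 16) on the vertical axis and the 6 groups on the horizontal axis; points are arrays, marker shape gives the mouse number within an age, the bar is the mean and the whisker the SD of 3. In every panel the PD25 divided, PD25 undivided and PD21 undivided arrays lie together above both non-bulge groups, and the PD21 divided arrays lie below them.

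Timp3, the inhibitor that stays bound to the matrix, was bright and even, with log2 levels between 11.38 and 12.73 in all 18 arrays. Undivided over non-bulge cells it differed by 0.23 on the log2 scale at PD25 (95% interval -0.40 to 0.87) and by 0.13 at PD21 (-0.51 to 0.76). All 4 of its probe sets had a positive difference at both ages and 0 of 4 passed (highest 0.78 and 0.79). It passed in none of the comparisons.

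Among the matrix metalloproteinases 6 of 18 were tested: the gelatinase Mmp2, the stromelysin-class Mmp3 and Mmp11, and the membrane-type Mmp14, Mmp17 and Mmp24. Mmp11 codes for stromelysin-3, an enzyme activated inside the cell by furin rather than outside it (probe set 1417234_at). Its log2 levels were 8.54, 8.29 and 8.77 in PD25 divided bulge, 7.05, 7.72 and 8.13 in PD25 undivided bulge and 4.94, 5.85 and 6.13 in PD25 non-bulge cells. At PD21 they were 7.27, 5.44 and 6.41 in divided bulge, 7.60, 5.85 and 6.80 in undivided bulge and 6.05, 5.68 and 5.99 in non-bulge cells. The 3 PD25 groups did not overlap and ran from divided through undivided to non-bulge, whereas the PD21 groups overlapped.

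At PD25 Mmp11 was higher in divided bulge than non-bulge cells by 2.90 ± 0.57 (adjusted p = 0.00131) and in undivided bulge than non-bulge cells by 2.00 ± 0.57 (adjusted p = 0.0229). The second call was lost without PD25 non-bulge mouse 1 or PD25 undivided mouse 2 or 3 (adjusted p = 0.0767 to 0.128). Divided minus undivided was 0.90 at PD25 (95% interval -0.28 to 2.08, adjusted p = 0.999), so their order was not a called difference. In divided bulge cells, where bulge markers were low at PD21, PD25 exceeded PD21 by 2.16 ± 0.57 (adjusted p = 0.0185). That call was lost without PD21 divided mouse 2 or PD25 divided mouse 1 or 3 (adjusted p = 0.0526 to 0.139). Mmp11 also missed the threshold for it within either array set, each of which held 1 mouse at one of the ages. It kept this call in 12 of 17 alternatives, with differences from 1.64 to 2.61. Its undivided effect of 0.84 at PD21 did not pass, and the difference between the ages in that effect, 1.15 ± 0.81, did not pass either (adjusted p = 1.00). Mmp11 was above the array median in only 8 of 18 arrays, so most low values here are dim. These were all bulge arrays, with every PD25 bulge array among them, so the filter kept Mmp11 only through bulge cells. With no filter its PD25 calls in divided and undivided bulge against non-bulge cells stayed (limma adjusted p = 0.00254 and 0.0454). So did the call between the ages in divided cells (adjusted p = 0.0347).

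Mmp2, gelatinase A, which degrades type IV collagen and is activated through MMP14 and TIMP2, ran the other way at PD25 (probe set 1439364_a_at). It had log2 levels of 7.64, 8.51 and 8.16 in PD25 divided bulge, 7.30, 7.89 and 8.30 in PD25 undivided bulge and 9.77, 8.84 and 9.66 in PD25 non-bulge cells. At PD21 it had 9.27, 9.76 and 9.57 in divided bulge, 9.07, 9.77 and 7.74 in undivided bulge and 9.32, 8.72 and 9.50 in non-bulge cells. All PD25 bulge arrays were below all PD25 non-bulge arrays, while the PD21 groups overlapped.

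Undivided bulge cells had less Mmp2 than non-bulge cells at PD25 by -1.59 ± 0.44 on the log2 scale (adjusted p = 0.0193), and both of its probe sets passed (-1.59 and -2.21). That call was lost without PD25 non-bulge mouse 1 or 3 or PD25 undivided mouse 1 or 2 (adjusted p = 0.0512 to 0.113) and within the second array set (-1.15, adjusted p = 0.137). Divided minus non-bulge was -1.32 ± 0.44 at PD25 and missed the threshold (adjusted p = 0.0694). Among the settings tried it passed only without PD25 non-bulge mouse 2 (adjusted p = 0.0476). PD25 minus PD21 in divided cells, where bulge markers were low at PD21, was -1.43 ± 0.44 with an adjusted p of 0.0490. This call was lost when any 1 of the 6 arrays was left out (adjusted p = 0.0505 to 0.186) and with mice as blocks (adjusted p = 0.0626). Neither Mmp2 probe set passed for it when each was tested on its own.

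Markers of other cell types differed between the same groups. The summed signal of 8 fibroblast markers, 5 of them tested, was 2194.7 to 3418.9 in PD25 divided bulge, 1460.8 to 1830.1 in PD25 undivided bulge and 461.4 to 805.1 in PD25 non-bulge cells. At PD21 it was 1461.5 to 2584.8 in divided bulge, 1355.2 to 2552.9 in undivided bulge and 368.4 to 2905.4 in non-bulge cells. Of the 5 tested, 3 were higher in PD25 divided bulge than PD25 non-bulge cells, Col1a1 (3.21 ± 0.55), Col1a2 (2.22 ± 0.68) and Col3a1 (2.32 ± 0.65), and the median was 2.22. Col1a1 also passed for PD25 undivided (2.34 ± 0.55), PD21 divided (3.55 ± 0.55) and PD21 undivided bulge (4.09 ± 0.55) against non-bulge cells. The medians of the 5 there were 1.23, 1.23 and -0.38, so at PD21 most of the list did not follow Col1a1 in undivided cells. Vim and Pdgfrb, the other tested markers, passed in no comparison. Col3a1 was higher in PD21 divided than PD21 undivided cells (2.77 ± 0.65), where the median of the 5 was 1.54. Pdgfra and Lum were above the array median in 0 arrays and Dcn in 1. Within an age, 1 or more of these markers passed in each comparison in which a member passed, and their part in those results was not tested. Melanocyte markers also differed between these groups, not always in the same direction as the fibroblast markers. Their sum was 1128.7 to 1944.5 in PD25 divided bulge, 1077.4 to 1313.3 in PD25 undivided bulge and 203 to 622.7 in PD25 non-bulge cells. Kit and Tyr were above the median in 0 arrays and Mitf in all 18. Of 3 tested, Mitf and Dct were higher in each PD25 bulge fraction than in non-bulge cells, and Pmel passed in no comparison. At PD21 the melanocyte sum was 466.6 to 1195.8 in divided bulge, 1033.1 to 3861.9 in undivided bulge and 512.7 to 834 in non-bulge cells. There Mitf passed as higher for undivided bulge against non-bulge cells. It passed as lower for divided against undivided cells, the reverse of Col3a1. The part of these markers in the results was not tested.

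Mmp14, the membrane-type enzyme that activates pro-MMP2, passed in no comparison. Its log2 levels were 8.88, 8.67 and 10.16 in PD25 divided bulge, 7.12, 8.71 and 8.67 in PD25 undivided bulge and 8.39, 9.63 and 9.74 in PD25 non-bulge cells. Undivided minus non-bulge was -1.08 ± 0.48 at PD25 (95% interval -2.08 to -0.09, adjusted p = 0.188), which passed with mice as blocks (adjusted p = 0.0358). At PD21 the difference was 0.29 (-0.70 to 1.28), and there its 3 probe sets disagreed in sign (0.29, -0.37 and -0.97). Mmp24, another membrane-type member, had probe sets of opposite sign at PD21 as well (0.44 and -0.90), and neither passed. The stromelysin Mmp3 and the membrane-type Mmp17 passed in no comparison, with log2 differences between -1.15 (Mmp3) and 1.39 (Mmp3).

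**Figure D3:**
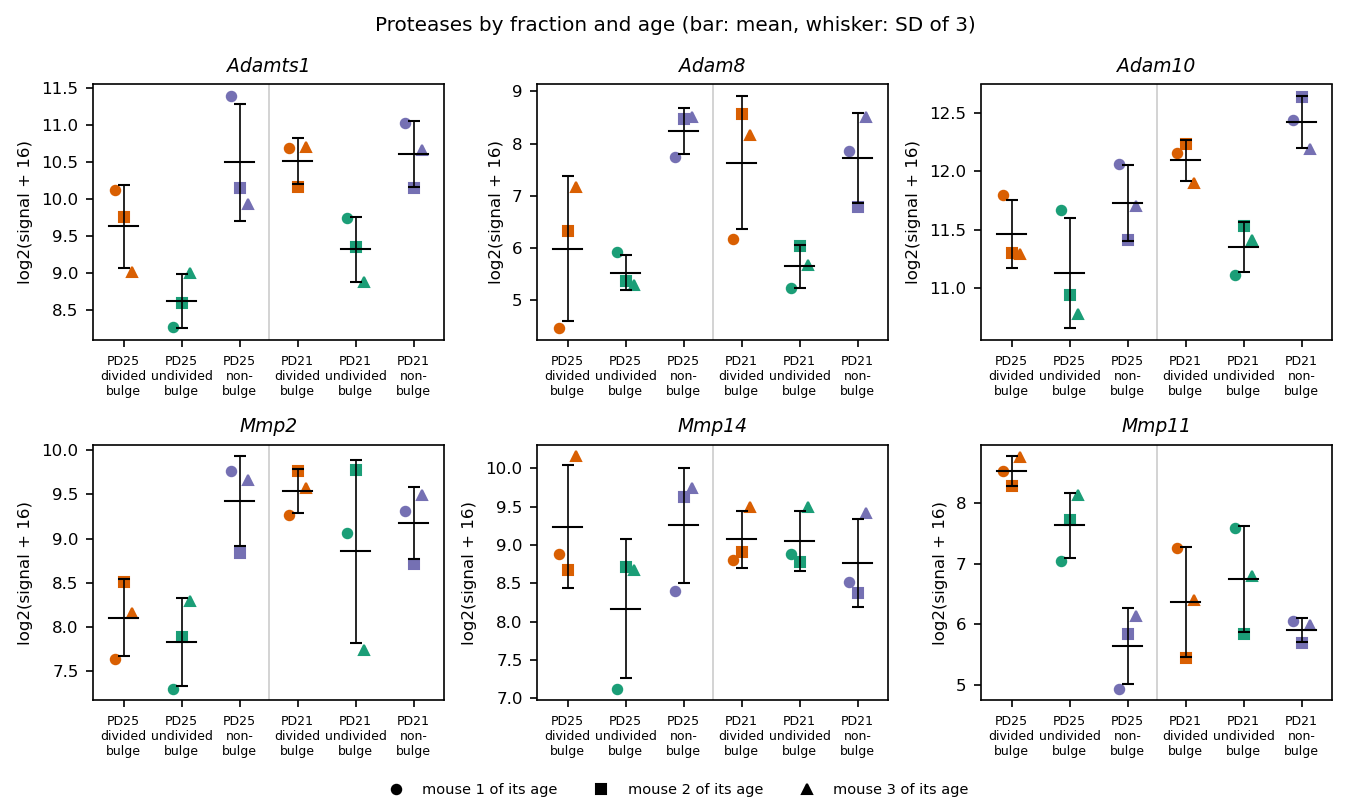
Log2(signal + 16) of 6 proteases in the 6 groups; points are arrays, marker shape gives the mouse number within an age, the bar is the mean and the whisker the SD of 3, and each vertical axis has its own range. Mmp11 is high in PD25 bulge cells, Mmp2 low in them, and the group means of Adamts1 and Adam8 are lowest in the undivided bulge fraction at each age.

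Of 23 ADAMs 8 were tested, and none was higher in a bulge fraction past the threshold. Adam8, a sheddase best known from leukocytes and inflamed tissue, had the largest differences (probe set 1416871_at). Its log2 levels were 4.46, 6.32 and 7.17 in PD25 divided bulge, 5.92, 5.37 and 5.30 in PD25 undivided bulge and 7.73, 8.46 and 8.52 in PD25 non-bulge cells. At PD21 they were 6.18, 8.56 and 8.16 in divided bulge, 5.23, 6.05 and 5.67 in undivided bulge and 7.86, 6.79 and 8.51 in non-bulge cells. Undivided bulge arrays were below non-bulge arrays at both ages without overlap, and divided bulge arrays were spread widely.

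At PD25 undivided bulge cells had less Adam8 than non-bulge cells, by -2.71 ± 0.68 (adjusted p = 0.00909), a call kept when any 1 array was left out and within the second array set (-3.16, adjusted p = 0.000852), while the lone arrays of the first set differed by -1.81. At PD21 the difference was -2.07 ± 0.68 with an adjusted p of 0.0517, just over the threshold, and 0.0254 with the mouse as a block. Divided minus non-bulge at PD25 was -2.25 ± 0.68 (adjusted p = 0.0384), a call lost without any 1 of the 3 PD25 non-bulge mice or PD25 divided mouse 1 or 2 (adjusted p = 0.05004 to 0.260). Over all 6 fits that left out 1 array of these groups, the difference ran from -2.85 to -1.49. It was largest without PD25 divided mouse 3, the fit that kept the call, and smallest without PD25 divided mouse 1. The call was kept in 7 of 17 alternatives, and was also lost with a pseudocount of 1, with no filter on dim probe sets, with only the compared groups in the fit and within the second array set (adjusted p = 0.0559 to 0.0612). The immune marker sum overlapped between bulge and non-bulge cells, at 168.9 to 287.3 (median 193.8) in PD25 undivided bulge and 176.1 to 288.5 (median 280.2) in PD25 non-bulge cells. The 3 tested immune markers had a median log2 difference of -0.41 in that comparison. Their part in the Adam8 differences was not tested. Adam8 was above the median in 9 of 18 arrays, none of them an undivided bulge array, so the filter kept it only through the other fractions. With no filter the call for PD25 undivided bulge against non-bulge cells stayed (limma adjusted p = 0.0143).

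Adam10, the main sheddase of Notch receptors, cadherins and several growth factors, was bright in every array (probe set 1428103_at). At PD21 its log2 levels were 12.16, 12.23 and 11.90 in divided bulge, 11.11, 11.53 and 11.41 in undivided bulge and 12.44, 12.64 and 12.19 in non-bulge cells. The undivided arrays were below the other 6 without overlap. Undivided minus non-bulge was -1.07 ± 0.25 (adjusted p = 0.00465), and 2 of 3 probe sets passed on their own (-1.07 and -1.26), the third standing at -0.63 (adjusted p = 0.153). Within the first array set, with 2 mice, the difference was -1.22 (adjusted p = 0.00229), and between the lone arrays of the second it was -0.78.

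At PD25 Adam10 levels were 11.80, 11.30 and 11.29 in divided bulge, 11.67, 10.94 and 10.77 in undivided bulge and 12.06, 11.41 and 11.70 in non-bulge cells, and the groups overlapped. Undivided minus non-bulge was lower in each of the 3 mice and averaged -0.60 ± 0.25 (adjusted p = 0.155). It passed with mice as blocks (adjusted p = 0.02002), a fit in which 7 members in place of 5 passed, and without PD25 undivided mouse 1 (adjusted p = 0.0351). Between the ages in divided bulge cells, where bulge markers were low at PD21, 1 of its 3 probe sets passed on its own (PD25 minus PD21 -0.88, adjusted p = 0.0464). It was not the one that stands for the gene. On that one, PD25 minus PD21 was -0.63 in divided bulge, -0.70 in non-bulge and -0.22 in undivided bulge cells. None of these passed.

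Adam17, the TNF-alpha converting enzyme, which also releases EGF receptor ligands, lay between 10.35 and 11.26 in all 18 arrays. Undivided minus non-bulge was -0.39 at PD25 (95% interval -0.83 to 0.06) and -0.33 at PD21 (-0.77 to 0.12), and it passed in no comparison. Its 3 probe sets stood between -0.33 and 0.10 at PD21, on both sides of 0. Adam15 was measured by 3 kept probe sets that disagreed in sign for undivided bulge against non-bulge cells at PD21 (0.27, -0.30 and 1.83), so no level difference is given for it. The remaining tested ADAMs (Adam4, Adam9, Adam11 and Adam28) passed in no comparison, with log2 differences between -0.64 (Adam4) and 1.40 (Adam11).

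Of 15 ADAMTS genes 4 were tested. Adamts1, a secreted protease that cuts the proteoglycans versican and aggrecan, was lower in undivided bulge cells at both ages (probe set 1450716_at). Its log2 levels were 10.11, 9.76 and 9.02 in PD25 divided bulge, 8.26, 8.59 and 9.001 in PD25 undivided bulge and 11.39, 10.15 and 9.93 in PD25 non-bulge cells. At PD21 they were 10.69, 10.16 and 10.71 in divided bulge, 9.74, 9.34 and 8.87 in undivided bulge and 11.03, 10.14 and 10.65 in non-bulge cells. At both ages the undivided arrays were below those of the other fractions without overlap.

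Undivided minus non-bulge was -1.87 ± 0.37 at PD25 (adjusted p = 0.000887) and -1.29 ± 0.37 at PD21 (adjusted p = 0.0213). The PD21 call was lost without PD21 non-bulge mouse 1 or 3 or PD21 undivided mouse 2 or 3 (adjusted p = 0.0507 to 0.124), and the PD25 call was kept in all 6 such fits. The PD21 call was also lost with no variance trend (adjusted p = 0.0539). Within the array set that held 2 mice of the age, the difference was -1.25 at PD25 (adjusted p = 0.0607) and -1.04 at PD21 (adjusted p = 0.1003), so that neither call was kept there. Divided cells exceeded undivided cells of the same mice by 1.20 ± 0.37 at PD21 (adjusted p = 0.0426), a call lost in 5 of 6 such fits, that is without any 1 of the 3 PD21 divided mice or PD21 undivided mouse 2 or 3 (adjusted p = 0.0502 to 0.168), and within the first array set (0.88, adjusted p = 0.200). At PD25 the same contrast was 1.01 (95% interval 0.25 to 1.77, adjusted p = 0.625), higher in 3 of 3 mice. The division effect did not differ by test between the ages (-0.19 ± 0.52, adjusted p = 0.957). That test and the PD21 call both use the PD21 divided arrays, in which bulge markers were low. On the measure given for Timp2, where low values lie near non-bulge cells, PD21 divided Adamts1 stood at 35.6%, -3.1% and -5.1%. In PD21 mice 2 and 3 it was thus at about the non-bulge level. In PD25 divided cells it stood at 66.3%, 36.1% and 98.9%. The part of the low markers in the Adamts1 differences was not tested. The other tested ADAMTS genes, the proteoglycanase Adamts5 and Adamts10 and Adamts16, passed in no comparison, with log2 differences between -0.98 (Adamts16) and 0.86 (Adamts5).

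**Figure D4:**
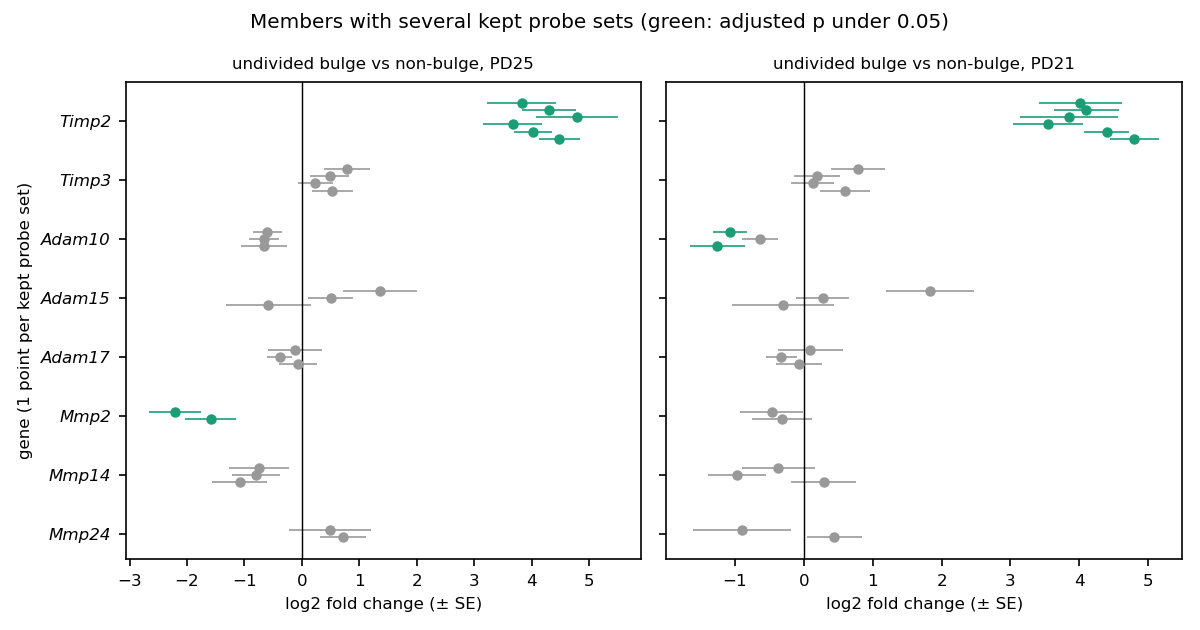
Log2 fold change with its SE (horizontal axis) for every kept probe set of the 8 members with more than 1, for undivided bulge minus non-bulge cells at PD25 (left) and PD21 (right); green points have an adjusted p under 0.05 when each probe set is tested on its own. All 6 Timp2 probe sets lie at 3.54 or more, both Mmp2 probe sets are green at PD25 alone, and Adam15, Adam17, Mmp14 and Mmp24 straddle 0 at PD21.

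The wider proteolysis system was examined through a list of 32 regulators (plasminogen activators and their serpins, furin-type convertases, tetraspanins and iRhoms that guide ADAMs, other inhibitors and ADAMTS-like proteins), of which 21 were tested. Of these, 3 were higher and 3 lower in PD25 undivided bulge than PD25 non-bulge cells, 6 of 21 beside 10.5% of all genes, and 4 were higher and 2 lower at PD21, 6 of 21 beside 11%. The median over the 21 was 0.01 at PD25 and -0.20 at PD21, beside -0.02 and -0.05 for all genes. Passing at both ages were Adamtsl4, an ADAMTS-like matrix protein without protease activity (2.14 ± 0.57 at PD25, 3.07 ± 0.57 at PD21), and Furin, the convertase that activates many pro-MMPs and ADAMs (0.85 ± 0.23 and 0.96 ± 0.23), both higher in bulge. Plau, the urokinase plasminogen activator (-1.63 ± 0.25 at PD25, -1.65 ± 0.25 at PD21), and Serpinb2, which inhibits it (-2.21 ± 0.51 and -1.95 ± 0.51), were lower.

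Of 25 listed proteins known to be shed by ADAMs, 22 were tested. In undivided bulge against non-bulge cells 3 were higher and 3 lower at PD25, beside 10.5% of all genes called, and 4 higher and 3 lower at PD21, beside 11%. The 6 that passed at PD25 passed at PD21 too, where Hbegf was the further one. Higher were Kitl, the ligand of the Kit receptor (4.18 ± 0.68 at PD25, 3.89 ± 0.68 at PD21), Ptprk, a receptor phosphatase (3.30 ± 0.45 and 3.02 ± 0.45), and Alcam, an adhesion molecule (3.00 ± 0.34 and 3.10 ± 0.34). Lower were Epgn, an EGF receptor ligand (-4.68 ± 0.53 and -3.34 ± 0.53), Il6ra, a receptor chain of interleukin 6 (-2.96 ± 0.44 and -2.28 ± 0.44), and Dll1, a Notch ligand (-1.51 ± 0.32 and -1.55 ± 0.32). In divided against undivided bulge cells at PD21, which uses the same undivided arrays, 2 regulators were higher and 4 lower and 3 shed proteins higher and 3 lower, beside 8.28% of all genes called, from -3.50 ± 0.68 for Kitl to 2.36 ± 0.53 for Epgn, on the arrays in which bulge markers were low. At PD25 limma called 0 regulators and 0 shed proteins in that comparison.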

How the data were processed

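RNA of sorted skin cell fractions, 5 ng each and amplified with Ovation chemistry per the labels' protocols, was hybridised to 18 Affymetrix MOE 430 2.0 mouse arrays. The deposited values are linear intensity signals that the authors made with GCOS, per the submitters' processing notes, which name no version. The 2% trimmed mean was 500 on each array, so the values were used without rescaling, and present calls were not used. Array medians were 60.3 to 116.6. The ratio of 3' to 5' Gapdh control signal ran from 3.10 to 11.60 over the arrays. It differed between fractions of 1 mouse, as in PD21 mouse 3 (9.67 divided, 3.21 undivided and 8.77 non-bulge). Its part in the results was not tested. Precision is limited by the 3 mice a group.

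The platform annotation gave 1 gene symbol to 34945 of 45101 probe sets, several to 932 and none to 9160, and 64 were control probe sets. All 60 member genes matched a RefSeq gene table by Entrez identifier with 0 changed symbols. Signals were taken as log2(signal + 16), a scale that understates the change of dim genes. One limma model (version 3.58.1, under R 4.3.3) held all 6 group means (lmFit, eBayes with a mean-variance trend, 12 residual and 11.2 prior degrees of freedom), and p-values were Benjamini-Hochberg adjusted over 11569 genes within a comparison. Errors are standard errors of the fit. The procedure was tested on simulated data.

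Title numbers tie the 3 fractions of an age to the same mice, and same-mouse arrays deviated together from their group means (correlations 0.0745 to 0.462 over 18 pairs). The mouse was therefore tried as a block, fixed within an age and random between ages (correlation 0.231, statmod 1.5.0). Other alternatives were pseudocounts of 1 and 64, no filter on dim probe sets, quantile normalisation, every probe set tested on its own, no variance trend, only the compared groups in the fit, and each array left out. The split into 2 sets of arrays by mean signal, as a block and within each set, was added after the data were seen. Named genes are all members that passed in a comparison of 2 groups, a fixed set (Timp1 to Timp4, Mmp2, Mmp9, Mmp14, Adam10, Adam17), members whose probe sets disagree, and the regulators and shed proteins that passed for undivided bulge against non-bulge cells at both ages. Members, lists and tests were chosen with earlier results of these data known.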

Additional observations from a re-analysis of the deposited data

Results flagged for a closer look

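The Timp2 difference between divided and undivided bulge cells was not the same at both ages. Divided minus undivided was 0.12 ± 0.33 at PD25 and -2.83 ± 0.33 at PD21 on the log2 scale. The difference of these, tested as an interaction in limma, was 2.95 ± 0.46 (adjusted p = 0.00419), and 4 of the 6 bulge markers also passed this test with positive values (median of the 6, 2.33). Divided cells were lower than undivided cells in 3 of 3 mice at PD21, and the fractions overlapped at PD25. The values stand beside a bulge marker sum that was 15964.3 to 25206.2 in PD25 divided and 3576.1 to 5225.7 in PD21 divided cells.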

How the results depend on the processing

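Alternatives were tallied for Adam8, Adam10, Adam17, Adamts1, Mmp2, Mmp11, Mmp14, Timp2 and Timp3 alone. Over their 18 called values, 242 alternatives kept the call and 70 lost it. Over their uncalled values 1458 stayed uncalled and 21 gained a call. The other tested members, and the dim members tested with no filter, were not in this tally. No called value changed sign. Timp2 kept its call under all 17 alternatives for undivided bulge against non-bulge cells at both ages and for divided bulge against non-bulge cells at PD25. For PD21 divided bulge against non-bulge cells it kept the call in 7 of 17, and Mmp2 in PD25 against PD21 divided cells did so in 4 of 17.

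The larger moves in the number of members called are listed here, and smaller ones are mostly left out. For undivided bulge against non-bulge cells at PD21, for example, Adam8 was added with the mouse as a block. Adamts1 was lost there with no variance trend. Counts under alternatives, here and elsewhere in the report, are given without the share of all genes that passed in the same fit. They are therefore not read as results about the members. For undivided bulge against non-bulge cells at PD25, 3 passed within the first and 3 within the second set of arrays, in place of 5. For divided bulge against non-bulge cells at PD21, 0 passed in place of 1 with a pseudocount of 64, with no variance trend, with only the compared groups in the fit, and within either set. At PD25 1 passed within the first set in place of 3, and with no filter Adam8 was lost while Adamts3 and Adamts20 were added. For PD21 divided against undivided cells, 4 passed in place of 2 with quantile normalisation, with the mouse as a block and with the array set as a block, 1 with no filter and with no variance trend, and 0 within the second set. For PD25 against PD21 divided cells, 5 passed in place of 3 with no filter (Timp2, Mmp11, Adamts3, Adamts20 and Timp1, with Mmp2 lost), 1 within the first set and 0 within the second. The change of the division effect had 0 in place of 1 within the second set. Fits within a set hold 1 or 2 arrays a group, and otherwise the cause was not tested. The mouse as a block changed no call beyond those given in the report.

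With each array left out, 2 to 4 members passed for undivided bulge against non-bulge cells at PD21 and 3 to 5 at PD25, 0 to 1 for divided bulge against non-bulge cells at PD21 and 2 to 3 at PD25. The range was 1 to 2 for PD21 divided against undivided cells and for PD25 against PD21 divided cells, 1 to 1 for the change of the division effect, and 0 for the other comparisons. Signal near the array median limits the reading of Adam8 and Mmp11, and 40 members were too dim to test. The labels used here give no sex or litter of the mice, and 3 mice a group bound the precision.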
